A study of Mus musculus with 4 samples.

Results

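Glycolysis and hypoxia response genes were followed through ribosome profiling of mouse embryonic stem cells under knockdown of eIF4A3, a DEAD-box helicase that the exon junction complex carries on spliced mRNA. The 41 genes are glucose and lactate transporters, enzymes and regulators of glycolysis (25 genes) and genes of oxygen sensing and the hypoxia response (16 genes). They were taken by name from a list, and no threshold on a measured value picked them. Earlier results of these data were known when the list was chosen. All 41 have an identifier among the 37311 in the count tables, and 40 passed the count filter, as did 13809 genes in all. The cells are the J1 line (strain 129S4/SvJae), kept on gelatin without feeder cells in serum with leukaemia inhibitory factor. They were infected with 2 short hairpins against eIF4A3, selected for 3 days in 1 μg/mL puromycin and lysed on day 4.5 after 1 min in 0.1 mg/mL cycloheximide, which holds ribosomes on the message. From these cells, 2 biological replicates of ribosome protected fragments (RPF, the pieces of mRNA under ribosomes) and 2 of total RNA were sequenced. All 4 libraries come from knockdown cells, so every comparison below is between the fractions or between replicates and none measures the effect of the knockdown. The labels used here do not tie a hairpin to a replicate, nor an RPF library to the lysate of the total RNA library with the same number.

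Glycolysis splits glucose into pyruvate and yields ATP without oxygen, and lactate dehydrogenase then regenerates the NAD+ that the pathway consumes. Many of its genes respond to low oxygen through the hypoxia inducible factors (HIF), which pair an oxygen-regulated alpha subunit with ARNT. In oxygen, prolyl hydroxylases of the EGLN family mark the alpha subunit for destruction through the VHL ubiquitin ligase. Pluripotent stem cells are known for a high rate of glycolysis.

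The RPF libraries held 9434987 (replicate 1) and 7615277 (replicate 2) reads assigned to genes, and the total RNA libraries 8969965 and 8218020. Levels below are CPM, the reads of a gene scaled to a common library total, after TMM normalisation, which evens out library size and composition. The ratio is the log2 of RPF over total RNA from edgeR's quasi-likelihood test. The test reports no SE, so the SE given is the size of the log2 ratio over the square root of its F statistic. A gene is called higher or lower where its p, adjusted by Benjamini-Hochberg over all genes tested, is under 0.05. With 2 libraries a fraction, the p-values set the difference between fractions against the spread within them, an estimate that borrows across genes. They rest on these 4 libraries only. Eif4a3, the targeted gene, was at 212 and 193 CPM in RPF and at 120.1 and 100.4 CPM in total RNA (log2 ratio 0.87 ± 0.15 SE, edgeR adjusted p = 0.00477), with no untargeted library to set this against. The 10 embryonic stem cell markers summed to 5928 to 6387 CPM in RPF and 4098 to 4612 in total RNA, and the 7 fibroblast markers to 11.5 to 12.9 and 5.15 to 5.57, with 2 of the 7 at 0 in total RNA. In such bulk samples fewer cells of a type and less RNA per cell cannot be told apart, and the part of other cell types in the ratios was not tested.

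Relative to total RNA, most messages of the glycolytic machinery carried more footprints than the median gene of these libraries, while those of the oxygen response lay on both sides of it. Of the 40 genes tested, 21 were higher in RPF, where 20.5% of all genes tested were higher, and 2 were lower, where 21.2% of all genes were lower. Calls in either direction thus numbered 23 of 40, against 41.7% of all genes. The median log2 ratio was 0.66 over the 40 genes and −0.02 over all genes tested. Among the 25 glycolysis genes 17 were higher and none was lower, with a median of 0.91, while among the 15 hypoxia genes tested 4 were higher and 2 lower, with a median of 0.087. The difference between these groups of genes was not tested. The libraries of the fractions did not overlap for 29 of the 40 genes, against 72.8% of all genes tested. Together the 41 genes took up 1.23% and 1.03% of gene counts in RPF and 0.783% and 0.652% in total RNA.

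The split between directions depends on the scaling. With library size in place of TMM the median of all genes moved to −0.45, and 19.8% of all calls were higher, against 49.2% with TMM. Under that scaling 7 of the 40 genes were higher, where 8.88% of all genes tested were higher. Lower were 6 of the 40, against 4957 of 13809 genes in all. The ratios below are thus to be read relative to the other genes of these libraries. Without total RNA replicate 2, the median log2 ratio was 0.52 over the 40 genes and −0.0071 over all genes in that fit.

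**Figure D1:**
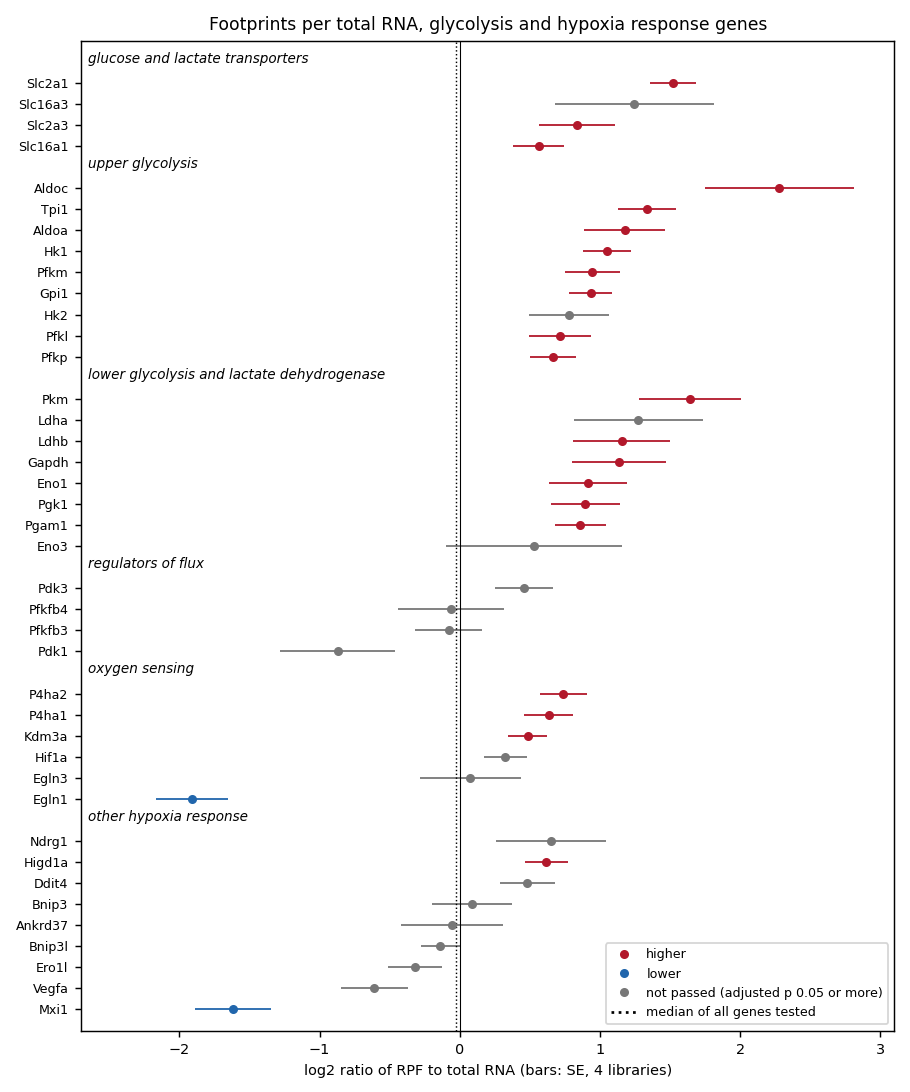
Log2 ratio of RPF to total RNA for the 40 genes tested (points) with the SE from the fit of 4 libraries (bars), by role; the dotted line is the median of all 13809 genes tested. The transporters and the enzymes of glycolysis lie at 0.53 or above, whereas Egln1 (−1.91) and Mxi1 (−1.62) stand apart on the left.

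The transporters bring glucose in and let lactate out, and 3 of the 4 were higher in RPF. Slc2a1, which encodes the widespread glucose transporter GLUT1, was at 811 and 732 CPM in RPF and at 277 and 261 CPM in total RNA. Its replicates lay close together in both fractions, and the RPF libraries were well above the total RNA libraries (log2 ratio 1.52 ± 0.16 SE, edgeR adjusted p = 0.00105). Slc2a3, encoding the high-affinity transporter GLUT3, was at 1211 and 1804 CPM in RPF and at 699.7 and 989 CPM in total RNA. Its fractions did not overlap, but the log2 ratio of 0.84 ± 0.27 SE (edgeR adjusted p = 0.0441) lost the call without RPF replicate 2 and without total RNA replicate 1. The lactate carrier Slc16a1 was at 189.5 and 172 CPM in RPF and 141 and 104 CPM in total RNA (log2 ratio 0.56 ± 0.18 SE, edgeR adjusted p = 0.0411), a call lost without total RNA replicate 2. Slc16a3, the lactate exporter linked to high glycolytic rates, was at 60.6 and 20.1 CPM in RPF and 24.4 and 9.68 CPM in total RNA. Replicate 2 was low in both fractions, the fractions overlapped, and the log2 ratio of 1.24 ± 0.57 SE did not pass (edgeR adjusted p = 0.118). Over the omissions of 1 library the ratio of Slc16a3 ran from 0.24 to 2.06, and it was called higher without RPF replicate 2 and without total RNA replicate 1.

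In the upper part of the pathway, from hexokinase to triosephosphate isomerase, 8 of 9 genes were higher, with ratios from 0.67 (Pfkp) to 2.28 (Aldoc). Hexokinase commits glucose to the cell by phosphorylating it, and its 2 isozymes fell on different sides of the threshold. Hk1 was at 61.0 and 62.7 CPM in RPF and 26.2 and 33.7 CPM in total RNA (log2 ratio 1.05 ± 0.17 SE, edgeR adjusted p = 0.00367). Hk2 was at 237 and 145 CPM in RPF and 135 and 87.8 CPM in total RNA (log2 ratio 0.78 ± 0.28 SE, edgeR adjusted p = 0.0626). The fractions did not overlap for either, and Hk2 spread more between replicates. Hk2 was called higher without RPF replicate 2, without total RNA replicate 1 and by DESeq2, so the split between the isozymes depends on the fit, and over the omissions of 1 library its ratio ran from 0.39 to 1.12. Gpi1, the isomerase that follows, was at 440.1 and 386 CPM in RPF and 214 and 219 CPM in total RNA (log2 ratio 0.93 ± 0.15 SE, edgeR adjusted p = 0.0037).

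The 3 phosphofructokinases, which catalyse the main regulated step, were all higher: Pfkl by 0.71, Pfkm by 0.95 and Pfkp by 0.67 on the log2 scale. Pfkm kept its call under each omission of 1 library, and Pfkl and Pfkp lost theirs without total RNA replicate 2. Tpi1, the isomerase of the triose phosphates, was at 226 and 172 CPM in RPF and 90.3 and 67.6 CPM in total RNA (log2 ratio 1.34 ± 0.20 SE, edgeR adjusted p = 0.00293). Of the aldolases, which cleave the 6-carbon sugar, Aldoa was at 829.8 and 513 CPM in RPF and 359 and 235 CPM in total RNA (log2 ratio 1.18 ± 0.29 SE, edgeR adjusted p = 0.0171). Aldoc, the brain-type aldolase, had the highest ratio of the 40 genes at a far lower level. Its raw counts were 57 and 148 in RPF and 35 and 24 in total RNA, so RPF replicate 2 stood apart from the other 3 libraries. The log2 ratio was 2.28 ± 0.53 SE (edgeR adjusted p = 0.0136), and it was 1.33 without RPF replicate 2, still past the threshold.

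In the lower part, which pays back ATP, and in lactate dehydrogenase, 6 of 8 genes were higher. Pkm, pyruvate kinase and the most abundant of the 41 messages, was at 5357 and 3213 CPM in RPF and 1721 and 1022 CPM in total RNA. It alone made up 35.9% and 28.1% of the 41 genes' counts in RPF and 25.1% and 18.5% in total RNA. Replicate 2 was the lower in both fractions, yet the lower RPF library exceeded the higher total RNA library (log2 ratio 1.64 ± 0.36 SE, edgeR adjusted p = 0.011). Gapdh, the dehydrogenase often used as a reference gene, was at 987 and 489.5 CPM in RPF and 390.4 and 282 CPM in total RNA (log2 ratio 1.14 ± 0.34 SE, edgeR adjusted p = 0.0323). Its RPF replicates differed by more than 2-fold, the ratio was 0.55 without RPF replicate 1, and the call was lost without total RNA replicate 2. The same omission ended the calls of Aldoa, Pgk1, Pgam1 and Eno1, whose log2 ratios were 1.18, 0.90, 0.86 and 0.91. Pgk1 makes the first ATP of this part, and Pgam1 and Eno1 carry its product to phosphoenolpyruvate. Eno3, the muscle enolase, was at 13.3 and 3.64 CPM in RPF and 8.30 and 3.50 CPM in total RNA, and did not pass (log2 ratio 0.53 ± 0.63 SE, edgeR adjusted p = 0.532). Without RPF replicate 1 the log2 ratio of Eno3 was −0.69, so 1 library set its direction.

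The 2 lactate dehydrogenase genes had their replicates in opposite orders. Ldha, whose product favours making lactate, was at 861 and 377 CPM in RPF and 349.5 and 162 CPM in total RNA. Ldhb, whose product favours the reverse reaction, was at 168 and 304 CPM in RPF and 76.7 and 135 CPM in total RNA. Ldhb was called (log2 ratio 1.15 ± 0.34 SE, edgeR adjusted p = 0.0328) and Ldha was not (log2 ratio 1.27 ± 0.46 SE, edgeR adjusted p = 0.0611). Ldha's call was gained without RPF replicate 1, without RPF replicate 2 or without total RNA replicate 1, and Ldhb's was lost without total RNA replicate 1, while over the omissions of 1 library the log2 ratio ran from 0.57 to 1.93 for Ldha and from 0.68 to 1.62 for Ldhb.

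None of the 4 regulators of flux passed. Pfkfb3 and Pfkfb4, which set the level of the activator fructose 2,6-bisphosphate, had log2 ratios of −0.077 and −0.064, with overlapping fractions. Pdk1, the kinase that shuts pyruvate out of the mitochondrial pathway, was at 80.6 and 39.1 CPM in RPF and 148 and 72.0 CPM in total RNA. It was the glycolysis gene with the lowest ratio (log2 −0.87 ± 0.41 SE, edgeR adjusted p = 0.127), and replicate 2 was the lower library in both fractions. Its log2 ratio ran from −1.48 to −0.27 over the omissions of 1 library, and it was called lower without RPF replicate 1, without total RNA replicate 2 and with library size in place of TMM. Its paralog Pdk3 was at 23.5 and 19.6 CPM in RPF and 16.1 and 15.2 CPM in total RNA (log2 ratio 0.46 ± 0.20 SE, edgeR adjusted p = 0.113). The enzyme that these kinases inhibit, the pyruvate dehydrogenase complex, was added after its values were seen: Pdhb, Dlat, Dld and Pdhx were higher by 0.86, 0.59, 0.53 and 0.66 on the log2 scale, and Pdha1 had a log2 ratio of 0.20 that did not pass. Without total RNA replicate 2, or with library size in place of TMM, the calls of Dlat, Dld and Pdhx were lost. Those of Dlat and Dld were also lost without total RNA replicate 1. The call of Dld was lost in 8 of 15 alternatives, among them the omission of RPF replicate 1.

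Oxygen sensing genes went both ways. Hif1a, the alpha subunit of HIF-1, was at 143 and 128 CPM in RPF and 118 and 99.0 CPM in total RNA. The fractions did not overlap, but the difference did not pass (log2 ratio 0.33 ± 0.15 SE, edgeR adjusted p = 0.125). Egln1, the main HIF prolyl hydroxylase (PHD2), was at 6.84 and 7.42 CPM in RPF and 22.4 and 31.2 CPM in total RNA. Both RPF libraries were far below both total RNA libraries (log2 ratio −1.91 ± 0.26 SE, edgeR adjusted p = 0.00191), the lowest ratio of the 40 genes and one called under each alternative run. Egln3, the inducible family member, was at 3.74 and 3.64 CPM in RPF and 4.01 and 2.99 CPM in total RNA, and its fractions overlapped (log2 ratio 0.076 ± 0.36 SE, edgeR adjusted p = 0.881).

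The 3 hydroxylases and demethylases other than the EGLN genes were higher in RPF. Kdm3a, a histone demethylase that HIF induces, was at 183 and 174 CPM in RPF and 133 and 122 CPM in total RNA (log2 ratio 0.48 ± 0.14 SE, edgeR adjusted p = 0.0273). P4ha1 and P4ha2, collagen prolyl hydroxylases, had log2 ratios of 0.63 ± 0.18 and 0.74 ± 0.17 SE with edgeR adjusted p of 0.0259 and 0.0122. Each of these 3 calls was lost without 1 total RNA library: Kdm3a without either, P4ha1 without replicate 2 and P4ha2 without replicate 1.

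Genes of the HIF axis outside the 41 were set beside them after their values were seen. None of the 5 HIF subunit genes was called in the main fit. Besides Hif1a, Epas1 (HIF-2 alpha), Hif3a, Arnt and Arnt2 had log2 ratios of −0.23, 0.51, −0.16 and 0.20. However, with library size in place of TMM Arnt was called lower, as was Epas1 without RPF replicate 1. Both Hif1a and Epas1 were called when the replicate number was a block in the fit. Of the 5 genes that act on the alpha subunits, 4 were lower in RPF. Egln2, a further prolyl hydroxylase, was at 15.1 and 16.6 CPM in RPF and 56.5 and 54.8 CPM in total RNA (log2 ratio −1.81 ± 0.16 SE, edgeR adjusted p = 0.000708). Hif1an, the asparaginyl hydroxylase FIH, was at 41.2 and 55.9 CPM in RPF and 99.3 and 106 CPM in total RNA (log2 ratio −1.08 ± 0.17 SE, edgeR adjusted p = 0.00361). Vhl was at 16.5 and 20.1 CPM in RPF and 30.7 and 35.9 CPM in total RNA (log2 ratio −0.87 ± 0.20 SE, edgeR adjusted p = 0.0119), and lost the call without total RNA replicate 2. For all 4 genes neither RPF library reached the lower total RNA library. The fractions did not overlap for 72.8% of all genes tested. Egln1, Egln2, Hif1an and Vhl were chosen from a handful of genes with the values known, and 21.2% of all genes tested were lower.

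**Figure D2:**
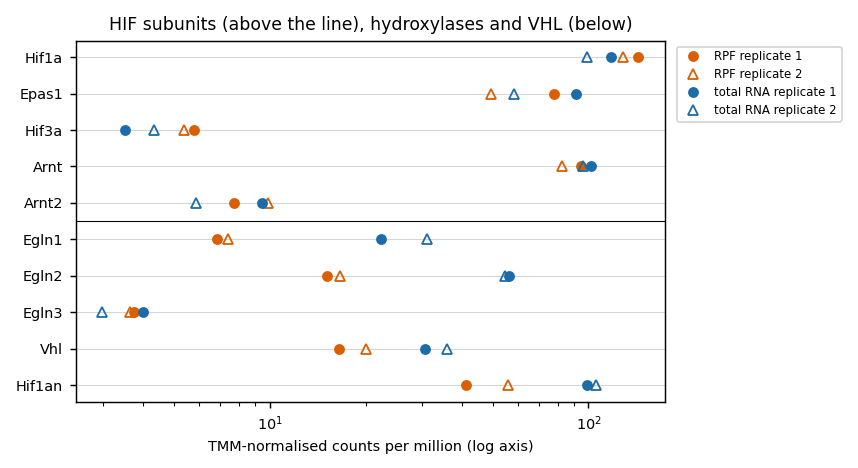
Level of HIF subunit genes (above the line) and of the hydroxylases and Vhl (below it) in each library, in TMM-scaled CPM on a log axis. For Egln1, Egln2, Vhl and Hif1an both RPF symbols lie left of both total RNA symbols, whereas Egln3 overlaps.

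Among the other hypoxia response genes 1 of 9 tested was higher and 1 lower. Mxi1, an antagonist of MYC, was at 6.06 and 7.86 CPM in RPF and 18.3 and 24.4 CPM in total RNA. Its RPF libraries lay well below its total RNA libraries (log2 ratio −1.62 ± 0.27 SE, edgeR adjusted p = 0.00405). Higd1a, a small mitochondrial protein, was at 42.1 and 42.8 CPM in RPF and 27.6 CPM in each total RNA library (log2 ratio 0.62 ± 0.15 SE, edgeR adjusted p = 0.0162). Its replicates were nearly equal, but the call was lost without either total RNA library.

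The 7 others did not pass. Vegfa, the angiogenic growth factor, was at 16.8 and 23.3 CPM in RPF and 26.0 and 35.0 CPM in total RNA, with fractions that did not overlap (log2 ratio −0.61 ± 0.24 SE, edgeR adjusted p = 0.0799). Ddit4, an inhibitor of mTORC1 signalling, also did not overlap, at 119.7 and 166 CPM in RPF and 91.9 and 112 CPM in total RNA (log2 ratio 0.48 ± 0.20 SE, edgeR adjusted p = 0.0876). Vegfa was called lower without RPF replicate 2 and Ddit4 higher without RPF replicate 1. The fractions overlapped for the mitophagy receptors Bnip3 and Bnip3l, for Ankrd37, for the oxidoreductase Ero1l and for Ndrg1, whose log2 ratios were 0.087, −0.14, −0.056, −0.32 and 0.65. Of these, Ero1l was called lower and Ndrg1 higher without RPF replicate 2, and the ratio of Ndrg1 ran from 0.16 to 1.14 over the omissions of 1 library. Car9, a carbonic anhydrase induced strongly by hypoxia, was below the count filter with 5 and 0 counts in RPF and 7 and 7 in total RNA. Its count of 0 allows up to 3 counts in RPF replicate 2, or 0.394 CPM by library size without the TMM factor.

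Levels per length were compared among 12 sets of isozymes or paralogs, using coding length for RPF and exon length for total RNA, and these values are levels and not ratios. The order of the mean levels was the same in RPF and total RNA in 12 of 12 sets, and in 9 of 12 with exon length for RPF as well, where Slc2a1 and Slc2a3, Pfkm and Pfkp, and Pdk1 and Pdk3 changed places in RPF. In RPF, Slc2a3 stood at 975 ± 271 (SD, n = 2) CPM per kb of coding length and Slc2a1 at 521 ± 37.5, both far above the lactate carriers Slc16a1 (122 ± 8.47) and Slc16a3 (28.6 ± 20.3). Hk2 (69.5 ± 23.6) stood above Hk1 (19.4 ± 0.372) in every library. Aldoa (535 ± 179) and Eno1 (380.0 ± 93.8) dwarfed Aldoc (13.3 ± 9.21) and Eno3 (6.4996 ± 5.24).

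Some pairs were not separated in one fraction or the other. Ldha was at 795 and 348 CPM per kb of coding length in RPF and Ldhb at 168 and 303. In total RNA Ldha was at 106 and 49.0 CPM per kb of exon length and Ldhb at 48.8 and 86.3, so Ldhb was the higher in replicate 2 and the order was not beyond the spread. Per kb of exon length, Pfkm (6.87 ± 0.954) and Pfkp (7.005 ± 0.908) also did not differ beyond their spread in total RNA. Nor did Pfkfb3 (1.69 ± 0.204) and Pfkfb4 (1.48 ± 0.564). These 2 ties depend on the length used. Per kb of the transcript with the longest coding sequence, Pfkm was at 7.97 ± 1.11 and Pfkp at 22.6 ± 2.94 in total RNA. By that length Pfkfb3 was at 5.78 ± 0.695 and Pfkfb4 at 2.07 ± 0.789. Egln1 and Egln3 stood close together in RPF (5.94 ± 0.343 and 5.15 ± 0.103) and apart in total RNA (7.45 ± 1.74 and 1.31 ± 0.271).

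**Figure D3:**
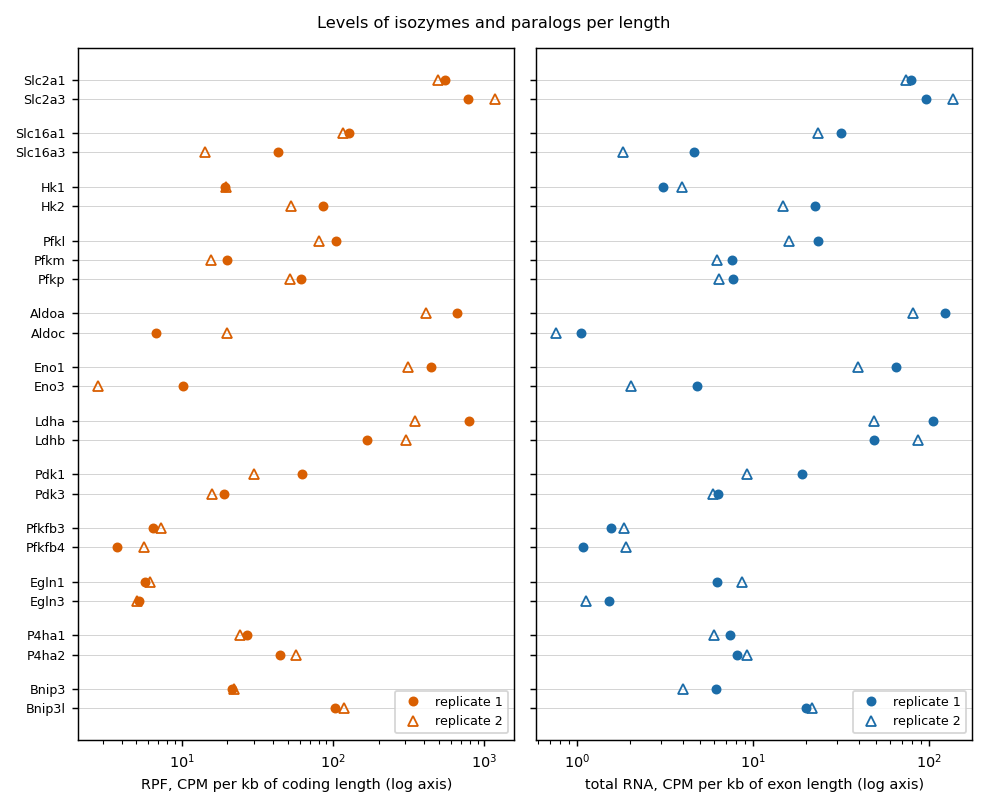
Levels of isozymes and paralogs in each library on log axes, as CPM per kb of coding length in RPF (left) and per kb of exon length in total RNA (right). Aldoa over Aldoc and Eno1 over Eno3 are wide apart in both panels, whereas Ldha and Ldhb cross between replicates in total RNA and approach each other in RPF.

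Between replicates, the glycolysis genes showed larger differences in the median than the hypoxia genes, and most were lower in replicate 2. In RPF 6 of the 40 genes differed at least 2-fold between replicates, against 10.5% of all genes tested: Slc16a3, Aldoc, Gapdh, Eno3, Ldha and Pdk1. In total RNA 4 did so, against 3.87% of all genes: Slc16a3, Eno3, Ldha and Pdk1. All 6 are glycolysis genes and none of the 15 hypoxia genes reached 2-fold in either fraction. The median size of the log2 difference between RPF replicates was 0.51 over the glycolysis genes, 0.16 over the hypoxia genes and 0.30 over all genes tested. In total RNA these medians were 0.50, 0.29 and 0.22.

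Of the 25 glycolysis genes, 18 were lower in replicate 2 in both fractions and 5 higher in both, while all genes tested were balanced at 4623 lower and 4843 higher of 13809. The hypoxia genes showed 5 lower and 7 higher of 15. Within gene families the direction was mixed. Ldha had a log2 difference, replicate 2 minus replicate 1, of −1.19 in RPF and −1.11 in total RNA, and Ldhb of 0.85 and 0.82. The glucose transporter Slc2a3 was higher in replicate 2 (0.57 and 0.50), and Slc2a1 lay near 0 (−0.15 and −0.087). With 1 library per fraction and replicate these differences have no test, and the part of the hairpin, the culture or the library in them was not tested.

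**Figure D4:**
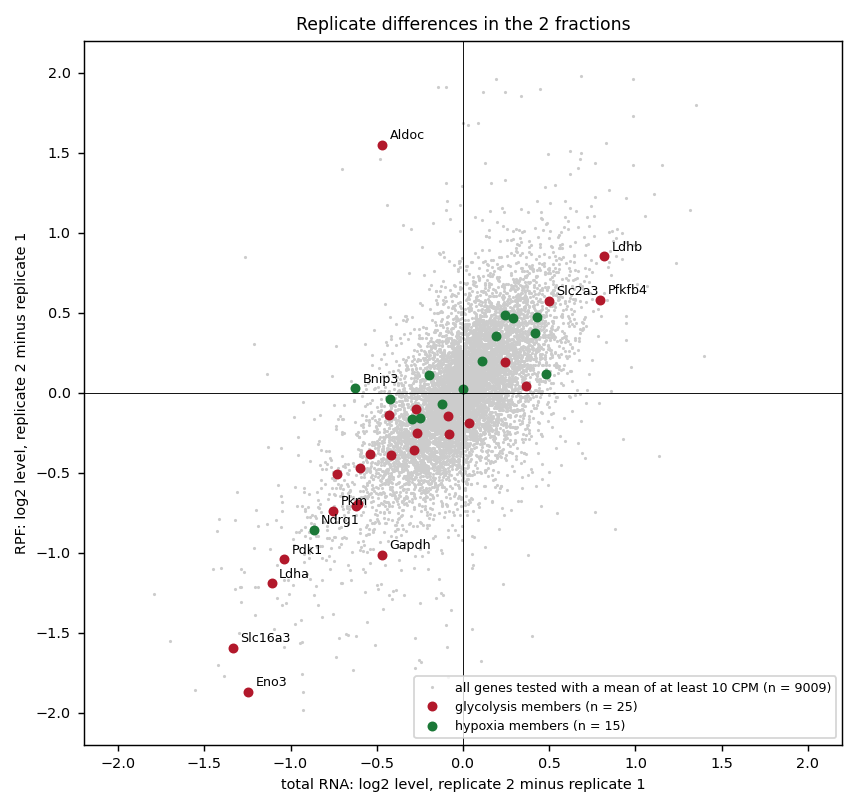
Log2 difference between replicates (replicate 2 minus replicate 1) in total RNA (horizontal) and RPF (vertical) for glycolysis genes (red), hypoxia genes (green) and all genes tested with a mean of at least 10 CPM (grey, 9009 genes, of which 23 lie outside the axes). Most red points lie in the lower left quadrant, with Ldhb, Slc2a3, Pfkfb4, Pfkfb3 and Hk1 in the upper right. Aldoc is the only red point in the upper left, where the green points of Bnip3, Ankrd37 and Higd1a also lie.

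Further genes of these pathways were read from lists compiled with earlier results of these data known. Of 26 other glycolysis and pyruvate genes tested, 7 were higher and 1 lower, with a median log2 ratio of 0.22. The highest at 10 CPM or more were G6pdx (log2 1.39), the entry enzyme of the pentose phosphate pathway, and Pgm1 (1.21), which links glucose to glycogen. The lowest were Pfkfb2 (−1.46), called lower, and Adpgk (−0.097), an ADP-dependent glucokinase that did not pass. Of 30 other HIF factors and hypoxia response genes tested, 8 were higher and 6 lower, with a median of 0.042. For both lists the shares over all genes tested were 20.5% higher and 21.2% lower. At 10 CPM or more, Mif (1.47), a cytokine, and Hmox1 (1.47), the haem-degrading oxygenase, were the highest, and Egln2 (−1.81) and the mitochondrial adenylate kinase Ak4 (−1.38) the lowest. Without total RNA replicate 2 Pgm1 lost its call and Ak4 was at −0.85, and without RPF replicate 1 Pgm1 was at 0.79. Cited2, which competes with HIF for its coactivator, was higher by 1.31 and was singled out after its value was seen.

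Several glycolysis genes have many near copies, which limits how surely their reads are placed. Over the coding sequence, the share of 28-base stretches, about the length of a footprint, that also occur in transcripts of another gene was 100% for Pgk1 and Pgam1, 94.3% for Gapdh, 90.5% for Eno1, 83.1% for Pkm and 61.7% for Ldha. Among the hypoxia genes it was 92.3% for Bnip3, 84.8% for Bnip3l and 61.5% for Higd1a, which was called higher. Gapdh shares stretches with 354 other genes, of which 340 are pseudogenes. The stretch of each of 3 genes that the most other genes hold is shown to make such sharing visible, as the transcript strand of GENCODE M21.
Gapdh: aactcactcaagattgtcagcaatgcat
Pgam1: tgccagagcactgcccttctggaatgaa
Ldha: atttccaccatgattaagggtctctatg
The Gapdh stretch, from base 496 of its coding sequence, occurs in 139 other genes, the Pgam1 stretch in 4 and the Ldha stretch in 15. Alignments counted as not unique made up 21.05% and 20.6% of all tallied reads in RPF and 16.6% and 16.5% in total RNA. The values of genes with such near copies are uncertain by an amount that was not measured. With only genes under 10% shared sequence in the fit, 11 of 26 members tested were higher and 2 lower, with a median of 0.56, where 19.6% of all genes in that fit were higher. These were 8 of 15 glycolysis genes and 3 of 11 hypoxia genes. Of the lower part of the pathway and lactate dehydrogenase, 1 gene of 8 was tested in that fit and it was not called, so the calls there rest on genes with shared sequence.

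Start codons of some genes with high or low ratios are shown because the bases around the ATG are known to affect how it is recognised. The capitals mark the base 3 before the ATG, the ATG and the base after it. The first 3 had high ratios, and the last 3, of which Egln2 is not among the 41, had low ones. Pdk1, the next lowest of the 41 after Egln1 and Mxi1 (log2 −0.87), is not printed and has A after the ATG.
Aldoc: actgtcAtcATGCcc
Pkm: tcaggaAccATGCcg
Slc2a1: agcgcgGccATGGat
Egln1: gccgcgGccATGGcc
Mxi1: cgtgccTccATGGgc
Egln2: actgctGccATGGac
A purine 3 bases before the ATG together with G after it was present in 14 of 39 members with a start context (35.9%) and in 45.4% of 12163 coding genes tested. Slc2a1 with a high ratio and Egln1 with a low one both hold it. The median log2 ratio of members was 0.77 with both letters and 0.65 without, and the part of the start context in the ratios was not tested. Among other features, Spearman's rho with the ratio across the 40 genes was 0.56 for mean CPM and 0.27 for the coding share of the exon length, against 0.21 and 0.21 across 12655 coding genes; genes are not independent replicates, all points share the 4 libraries, and the counts enter the ratio and the mean alike.

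Promoters were searched for the core of the HIF binding element, as ACGTG or GCGTG on either strand, since the list is one of HIF-responsive pathways. In windows from 250 bases before to 50 after the start in RefSeq (GRCm38.p6), 45 of 56 windows of the members (80.4%) held one, against 43.8% of all 32851 RefSeq windows and 61.8% of 13030 windows of genes tested here. By gene, 36 of 38 members with an entry held one (94.7%), against 67.8% of genes tested here and 46.7% of all RefSeq genes. Gpi1 and Tpi1 held none. Matches of 5 genes are printed with 10 bases on each side, chosen after their values were seen, from transporters and enzymes described above; the capitals mark the match, read on the gene's strand, so a match on the opposite strand appears as CACGT.
Ldha, chr7:46845747-46845771 on the + strand, at −47 from the start: cccagcctacACGTGggttcccgca
Slc16a3, chr11:120949030-120949054 on the + strand, at −27 from the start: ggcagcggtgACGTGcgcgggggac
Hk2, chr6:82774492-82774516 on the − strand, at −52 from the start: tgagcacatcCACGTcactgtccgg
Pkm, chr9:59657142-59657166 on the + strand, at −75 from the start: ccgatccggtCACGTccgcgccgca
Ldhb, chr6:142508069-142508093 on the − strand, at −126 from the start: gggggagagcGCGTGcacactccag
Ldha, Slc16a3, Hk2 and Pkm were lower in replicate 2 in both fractions and Ldhb was higher, and all 5 hold a match. A match is a string of letters and not a measured binding site, and binding was not measured in these libraries.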

How the data were processed

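Ribosome protected fragments and total RNA were each measured in 2 libraries of knockdown cells. The authors deposited raw read counts per gene, which were whole numbers without normalisation. Reads were 50 bp long and each RPF library was sequenced in 4 runs, per the labels' protocols. Per the submitters' processing notes, the authors used HTSeq 0.11.2, TopHat2 2.1.1, edgeR 3.26.8 and Bowtie 1.2.3, with mm9 as the genome. How runs were joined, and with which annotation, feature type and strand setting reads were counted, is not given in the sources used here, so overlapping and antisense genes could not be told apart. Closing tallies were left out of library sizes.

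The 32621 identifiers found in GENCODE M21 were given its symbols. The counts were tested with edgeR 4.0.16 in R 4.3.3 (glmQLFit and glmQLFTest, TMM, filterByExpr at its minima of 10 for the count and 15 for the total) over all 13809 genes passing, with Benjamini-Hochberg adjustment and a threshold of 0.05. No covariate was used. The members and lists were chosen with earlier results of these data known. Named genes were Eif4a3, the highest and lowest of each role at 10 CPM or more, isozymes on different sides of the threshold, the genes called lower, main pathway genes and those past 2-fold between replicates. Alternatives included limma-voom (limma 3.58.1) and DESeq2 1.42.0. The TMM factors were 0.822 and 0.903 in RPF and 1.14 and 1.18 in total RNA. Replicates were compared and differed by more than sampling noise. The limit given for a count of 0 was set at 3 counts and covers counting error only. Shared stretches and start contexts came from GENCODE M21 and promoters from RefSeq, whose build is not that of the counts.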

Additional observations from a re-analysis of the deposited data

Results flagged for a closer look

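For 5 of the 40 genes the difference between replicates (replicate 2 minus replicate 1) ran one way in RPF and the other way in total RNA. With 1 library per fraction and replicate this was not tested, and each value below is the RPF difference minus the total RNA difference on the log2 scale. Aldoc stood out at 2.02, with 57 and 148 counts in RPF and 35 and 24 in total RNA. Bnip3, a mitophagy receptor, was at 0.65, with 94 and 85 counts in RPF and 143 and 88 in total RNA. Ankrd37 was at 0.30, with 22 to 35 counts in all 4 libraries. Gpi1 was at −0.22, and Higd1a was at 0.027, where both fractions hardly differed between replicates.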

How the results depend on the processing

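With library size in place of TMM, 7 genes of the 40 were higher and 6 lower with a median log2 ratio of 0.22, and 1226 and 4957 of all genes; the ratios of Hif1a (−0.11), Egln3 (−0.35), Bnip3 (−0.34) and Pdha1 (−0.23) turned. Tested against a fold of 1.5 (glmTreat), 6 of the 40 and 1155 of all genes were higher and 1549 of all genes lower. With only genes under 10% shared sequence, 11 were higher, where 26 were tested. Leaving out each library in turn gave 10 to 25 genes higher and 2 to 4 lower of the 40, and 1721 to 3341 higher and 1857 to 3440 lower of all genes. Over these omissions some single ratios changed sign: Eno3 ranged from −0.69 (without RPF replicate 1) to 1.27, Pfkfb3 from −0.20 to 0.049, Pfkfb4 from −0.41 to 0.39, Egln3 from −0.12 to 0.30, Bnip3 from −0.19 to 0.43, Ankrd37 from −0.15 to 0.040, Epas1 from −0.58 to 0.13 and Adpgk from −0.19 to 0.020. A correction for the coding share of the exon length turned Pfkfb3 (0.13), Pfkfb4 (0.018), Bnip3l (0.16) and Adpgk (0.23). None of the genes whose ratios changed sign was called in the main fit, though some, such as Hif1a and Epas1, were called in an alternative. With exon length for RPF, the log2 level of Slc2a1 over Slc2a3 in RPF was 0.11, and that of Pdk1 over Pdk3 was −0.22. The cause of these changes was not tested.

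With a replicate block, 28 of the 40 genes were higher and 5 lower, and 4257 and 4365 of all genes. The libraries share only a number with those of the other fraction. With deviations from the group means, same-numbered libraries correlated across genes at r = 0.80 for the 40 genes and 0.41 for all genes tested, which is a hint from the data and not from the design. DESeq2 called 22 of the 40 higher and 2 lower, and limma-voom 21 and 2. Slc2a1, Hk1, Gpi1, Tpi1, Aldoc, Pkm, Egln1 and Mxi1 kept their calls under each alternative in which they were tested as single genes. Depth limited Car9, which was below the count filter.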
